A study of Rattus norvegicus with 192 samples.

Results

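The pituitaries of adult male rats dosed with PFOS were compared with those of rats that received none, whether or not vancomycin was given as well. Of 48 pituitary libraries, among 192 in the whole series, 43 entered the comparison: 24 exposed to PFOS (libraries P25 to P48) and 19 not exposed (P6 to P24). Every animal was a wild type rat of the Crl:CD(SD) stock, kept on a reversed light and dark cycle and dosed by oral gavage each day for 7 days, from postnatal day 56 to 62. The 4 treatments were corn oil as vehicle (7 libraries used), 8 mg/kg/day vancomycin (12 libraries), 3 mg/kg/day PFOS (12 libraries), and both agents at the same doses (12 libraries). Vancomycin stood as an additive factor in the model, so the PFOS factor is the average difference with and without the antibiotic. RNA was measured by 3' bulk RNA barcoding (BRB-seq), in which each sample receives its own well barcode during reverse transcription and samples are then pooled. The labels do not say whether each library came from a separate animal, so p-values measure the spread between these samples, which may in part be technical. Every treatment occupied a single row of the plate, and an effect of the row cannot be told apart from one of the treatment.

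The anterior pituitary makes growth hormone, prolactin, corticotropin, thyrotropin and the gonadotropins, each in its own cell type and each under control of hypothalamic factors and of hormones fed back from the target glands. Thyrotropin consists of a beta chain of its own (Tshb) and an alpha chain (Cga) shared with the gonadotropins, and thyroid hormone lowers the transcription of both. PFOS is a persistent perfluorinated surfactant that is known to lower circulating thyroxine in rats, and vancomycin is a glycopeptide antibiotic that is hardly absorbed from the gut.

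The 5 vehicle libraries P1 to P5 were left out because the base composition of their well barcodes differed from that of every other pituitary library. The barcodes of the 12 vehicle libraries are printed here since the choice rests on them, 5' to 3', with G and C in capitals and A and T in lower case.

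P1: GGaCat

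P2: GtCaaG

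P3: tCCaaC

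P4: ttGtCC

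P5: CtCtCC

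P6: aCCCGG

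P7: aCGCGC

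P8: aGCCGC

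P9: aGGCGG

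P10: CaCCGG

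P11: CaGCGC

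P12: CCaCGC

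P1 to P4 hold 3 and P5 holds 4 G or C bases of 6, and the 43 libraries used hold 5 each. The first base still went with exposure within those 43: 4 unexposed barcodes began with A and 15 with C, against 3 exposed ones with C, 18 with G and 3 with T.

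Total counts of the 43 libraries ran from 231929 (P27, PFOS) to 2804779 (P48, both agents), with a median of 530922. Exposed libraries held 640580 ± 490056 counts (SD, n = 24) and unexposed ones 548578 ± 192714 (SD, n = 19), which did not pass a two-sided permutation test (p = 0.576). Without P48 the exposed mean was 546484 (p = 0.972, permutation test). The tissue showed its label: the 7 hormone genes together made up 37.8% ± 3.44 (SD, n = 19) of the counts in unexposed and 37.4% ± 4.95 (SD, n = 24) in exposed libraries. None of 15 marker lists of pituitary and other cell types differed in its share of counts between exposed and unexposed libraries (permutation tests, adjusted p from 0.474 to 0.994). The blood cell genes took 0.461% to 2.23% in unexposed and 0.523% to 1.74% in exposed libraries. In bulk tissue, fewer cells of a type and less RNA per cell cannot be told apart.

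PFOS went with few differences in pituitary RNA. Of 4081 genes tested with the quasi-likelihood F test of edgeR, 8 fell and 0 rose at a Benjamini-Hochberg adjusted p under 0.05, which is 0.196% of the genes tested. At an unadjusted p under 0.05, 167 genes were lower (4.09%) and 118 higher (2.89%). The 8 that fell were Mrpl51, Elavl1, Fbxo21, Ptp4a2, Fitm2, Zfp644, Zfp280b and Poldip3, with log2 fold changes from -0.56 to -0.94. No gene moved by more than 1 on the log2 scale, and the median over all genes was 0.00. The 95% interval of the fold change lay within 1.5-fold either way for 3777 genes (92.6%) and within 2-fold for 4062 (99.5%). The vancomycin factor of the same model passed for 0 genes, with 115 at an unadjusted p under 0.05 (55 lower and 60 higher).

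**Figure D1:**
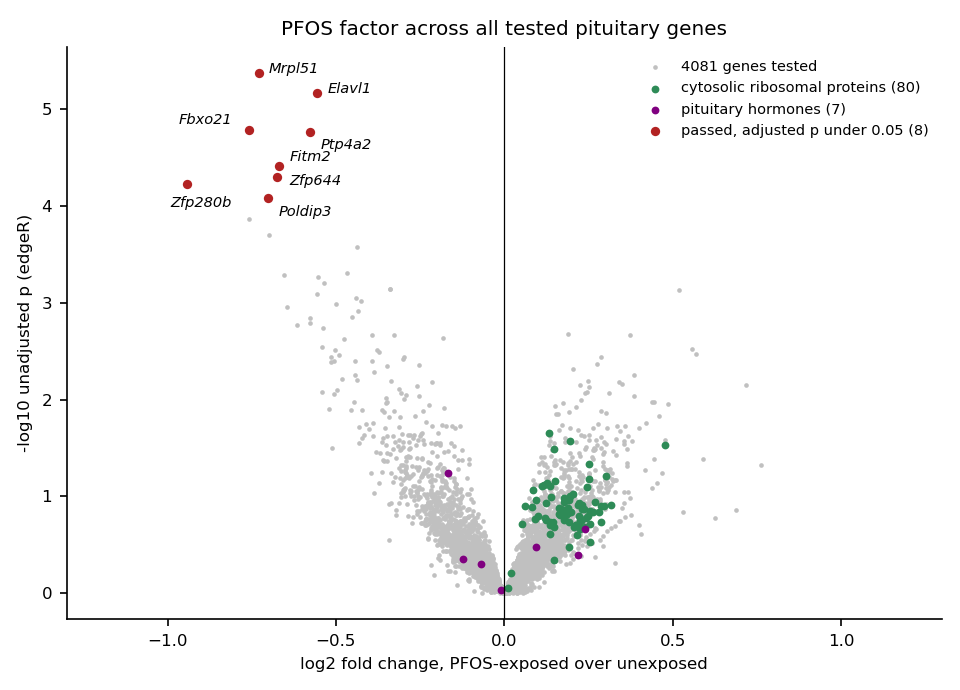
Each point is 1 of the 4081 genes tested in the pituitary, with the log2 fold change of the PFOS factor on the horizontal axis and -log10 of the unadjusted p on the vertical axis. The 8 genes that passed (red) all lie to the left of 0, the 80 cytosolic ribosomal protein genes (green) all lie to the right of 0, and the 7 hormone genes (purple) lie near 0.

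Mrpl51, a protein of the large subunit of the mitochondrial ribosome, had the lowest p. Levels are in CPM, which sets each count against the total of its library after TMM scaling (trimmed mean of M values). In vehicle libraries it ran from 40.7 to 172 CPM (median 97.5), under vancomycin from 83.0 to 166 (median 117), under PFOS from 52.6 to 143 (median 87.0), and under both agents from 42.2 to 80.6 (median 65.8). The groups overlapped, and the lowest unexposed library was P7, the deepest vehicle library with 948968 counts; 23 of 24 exposed libraries lay below the unexposed mean of 117 ± 34.4 CPM (SD, n = 19). The exposed mean was 73.7 ± 24.1 CPM (SD, n = 24), a log2 fold change of -0.73 ± 0.14 (SE; edgeR, adjusted p = 0.0140).

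Elavl1 encodes HuR, an RNA-binding protein that stabilises mRNAs with AU-rich elements. It measured 41.4 to 99.0 CPM in vehicle libraries (median 58.6), 38.4 to 89.9 under vancomycin (median 60.3), 26.7 to 75.5 under PFOS (median 47.01) and 23.7 to 52.7 under both agents (median 37.3). A group of 10 exposed libraries lay below the lowest unexposed one, and 23 of 24 lay below the unexposed mean. The log2 fold change was -0.56 ± 0.11 (SE; edgeR, adjusted p = 0.0140).

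Poldip3, a protein that binds mRNA and DNA polymerase delta, gave 73.0 to 392 CPM in vehicle (median 210), 124 to 325 under vancomycin (median 231), 76.0 to 290 under PFOS (median 132) and 76.0 to 174 under both agents (median 145). Here too P7 was the lowest of all 43 libraries, so no exposed library lay below the unexposed range, although 23 of 24 lay below the unexposed mean. The log2 fold change was -0.70 ± 0.16 (SE; edgeR, adjusted p = 0.0417).

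Fbxo21, a substrate-binding subunit of an SCF ubiquitin ligase, ran from 21.5 to 106 CPM in vehicle (median 53.9), 28.9 to 90.0 under vancomycin (median 55.7), 13.03 to 57 under PFOS (median 33.9) and 18.6 to 55.4 under both (median 36.3). All 24 exposed libraries were below the unexposed mean of 58.3 ± 22.1 CPM (SD, n = 19). The log2 fold change was -0.76 ± 0.16 (SE; edgeR, adjusted p = 0.0175). Ptp4a2, a protein tyrosine phosphatase held at membranes by a prenyl group, measured 57.4 to 146 CPM in vehicle (median 87.2), 67.6 to 171 under vancomycin (median 104), 27.03 to 101 under PFOS (median 64.2) and 53.4 to 97.1 under both (median 63.8). All 24 exposed libraries again lay below the unexposed mean, and the log2 fold change was -0.58 ± 0.12 (SE; edgeR, adjusted p = 0.0175).

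Fitm2, an endoplasmic reticulum protein needed for lipid droplets to form, ran from 33.2 to 80.6 CPM in vehicle (median 47.2), 40.8 to 67.2 under vancomycin (median 52.4), 14.8 to 90.3 under PFOS (median 36.1) and 12.3 to 47.2 under both (median 32.3). The highest value of all 43 belonged to an exposed library, P27, which is the one with the fewest counts. A group of 10 exposed libraries lay below every unexposed one, and the log2 fold change was -0.67 ± 0.15 (SE; edgeR, adjusted p = 0.0312).

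The other genes that fell encode the zinc finger proteins Zfp644 and Zfp280b. Zfp644 ran from 21.5 to 55.0 CPM in vehicle (median 30.8), 19.1 to 57.3 under vancomycin (median 30.5), 6.67 to 32.1 under PFOS (median 18.9) and 12.3 to 33.6 under both (median 19.1). The groups overlapped, with 12 of 24 exposed libraries below every unexposed one, and the log2 fold change was -0.67 ± 0.15 (SE; edgeR, adjusted p = 0.0340). Zfp280b ran from 8.37 to 51.3 CPM in vehicle (median 25.2), 12.99 to 38.1 under vancomycin (median 23.5), 6.51 to 52.3 under PFOS (median 12.6) and 0 to 23.7 under both (median 12.7). It rested on 0 to 23 counts per library, and 23 of 24 exposed libraries lay below the unexposed mean. Its log2 fold change of -0.94 ± 0.22 was the largest in size and had the widest standard error of the 8 (edgeR, adjusted p = 0.0344).

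**Figure D2:**
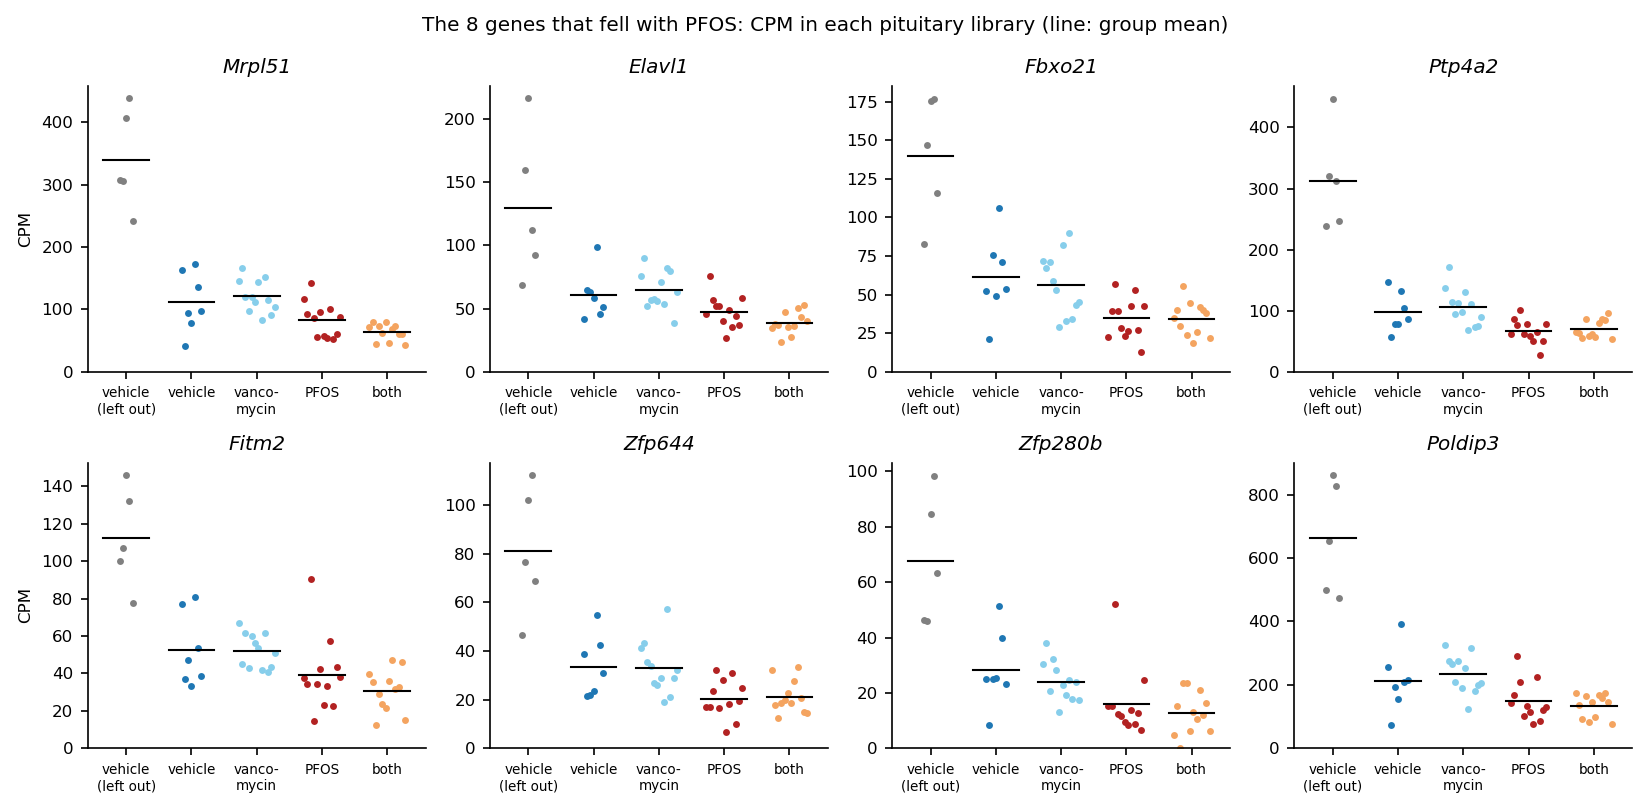
Each panel shows 1 of the 8 genes that fell, with CPM in each of the 48 pituitary libraries on the vertical axis and the groups on the horizontal axis; the line is the group mean. Both PFOS groups lie lower than the vehicle and vancomycin groups with overlap, and the 5 vehicle libraries left out (grey) have the highest mean in every panel.

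The same comparison was made without and under vancomycin, in subsets that share no library. Without vancomycin, where 12 PFOS libraries stood against 7 vehicle libraries, 0 genes passed with edgeR and with DESeq2, and 145 had an unadjusted p under 0.05 (edgeR). Under vancomycin, Mrpl51 (-0.95 ± 0.18, adjusted p = 0.00871) and Elavl1 (-0.72 ± 0.14, adjusted p = 0.0119) fell, which is 0.0490% of the genes tested. All 8 genes had a negative fold change in both subsets. Those lower at an unadjusted p under 0.05 were 5 of the 8 without vancomycin (2.01% of all genes) and 8 under it (3.72% of all genes); these libraries are those that chose the 8, so the counts are a description. The difference between the subsets passed for 0 of 4081 genes with edgeR and with DESeq2, with 117 at an unadjusted p under 0.05 (edgeR interaction term). Over the 4081 genes, the fold changes of the subsets correlated with Pearson's r = 0.18 and Spearman's rho = 0.17, as a description across genes of 1 tissue, which are not independent of each other.

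The level of many genes went with the total count of the library, and 7 of the 8 genes were among them. With log2 of the total added to the model, its coefficient passed for 1910 of 4081 genes (46.8%), 924 higher (22.6%) and 986 lower (24.2%) in deeper libraries. These 7 were lower in deeper libraries, by 0.31 (Ptp4a2) to 0.60 (Poldip3) in log2 units for each doubling of the total, and Elavl1 was not called (-0.04 ± 0.08, adjusted p = 0.704). With the total in the model all 8 still fell, by 0.50 to 0.80 on the log2 scale (edgeR, adjusted p from 0.000872 to 0.0404). In the 25 libraries with at least 500000 counts, 0 genes passed and the 8 were at -0.57 to -0.97; after thinning of all libraries to the same total, 0 genes passed and the 6 that could be tested were at -0.52 to -0.83. The first principal component of the deviations from group means held 28.8% of the variance over 2944 genes, against 4.09% for the second component, and correlated with log2 total at r = 0.83.

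The vehicle libraries P1 to P5, read against the vehicle libraries P6 to P12, showed 66 genes higher (1.68%) and 1 lower (0.0255%) of 3926 tested, with no difference in treatment. All 8 genes that fell with PFOS were among the 66, by 1.09 (Elavl1) to 1.72 (Ptp4a2) in log2 units. Every one of P1 to P5 exceeded all 43 other libraries for Mrpl51, Ptp4a2 and Poldip3. Of 65 of the 66 genes that were also tested for PFOS under vancomycin, a comparison that shares no library with P1 to P12, 62 were lower with PFOS, with a median log2 fold change of -0.42 against 0.01 over all genes, of which 48.3% were lower. Across 3925 genes the contrast of P1 to P5 against P6 to P12 and the PFOS effect under vancomycin correlated at r = -0.34 (Spearman's rho = -0.19). P1 to P5 stood in well columns 1 to 5 and P6 to P12 in columns 6 to 12 of the same row. Barcode and well column cannot be told apart in that contrast. Each treatment has barcodes of its own, so barcode and treatment cannot be told apart.

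**Figure D3:**
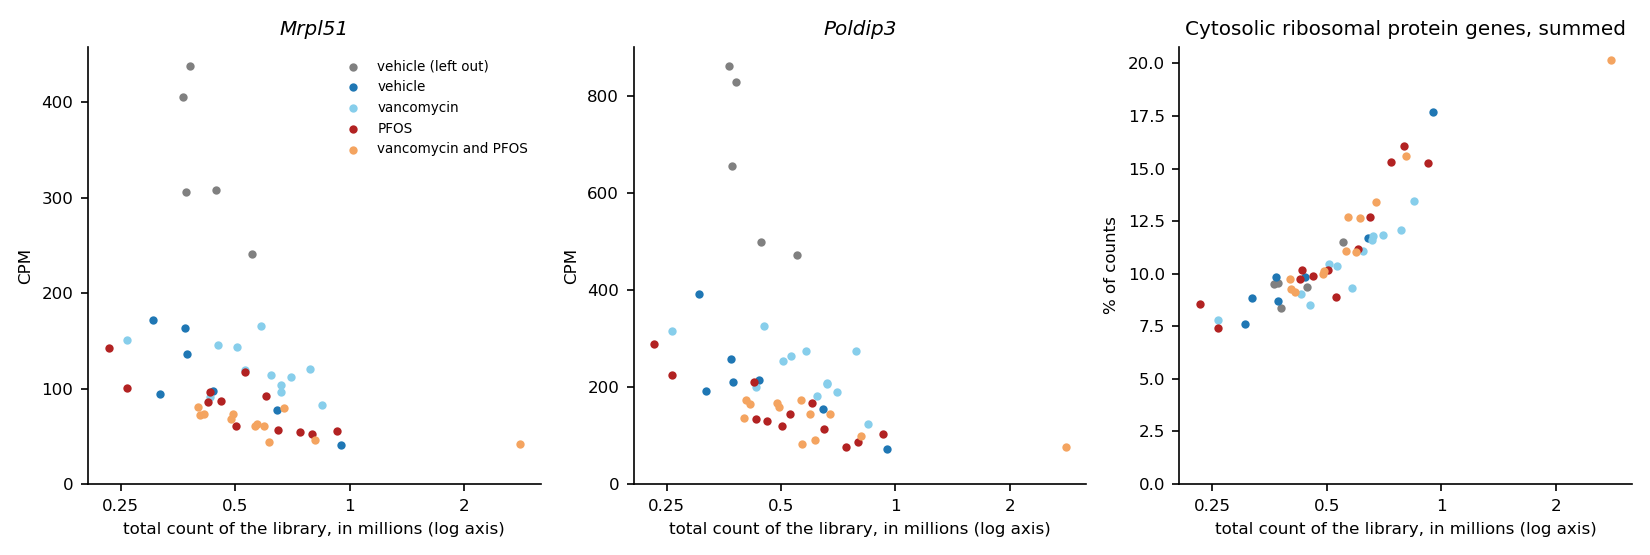
Each point is 1 of the 48 pituitary libraries, with its total count on a log axis and, on the vertical axis, the CPM of Mrpl51, the CPM of Poldip3 or the percent of counts in cytosolic ribosomal protein genes. Both single genes are lower in deeper libraries and highest in the 5 vehicle libraries left out (grey), while the ribosomal share rises from 7.40% in P33 to 20.1% in P48.

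No hormone gene passed the test. Gh1, growth hormone, took 19.4% to 37.9% of the counts in unexposed libraries (median 28.3%) and 9.23% to 41.4% in exposed ones (median 28.9%), with the lowest share in P48. Its log2 fold change was -0.01 ± 0.10 (SE), with a 95% interval of the fold change from 0.865 to 1.14 (edgeR, adjusted p = 0.995). Prl, prolactin, took 3.19% to 5.97% in unexposed and 2.44% to 6.51% in exposed libraries, and the fold change had an interval from 0.933 to 1.22 (log2 0.09 ± 0.10). Pomc, the precursor of corticotropin, had a wider interval than either. Pomc ran from 2623 to 34930 CPM in unexposed (median 9061) and from 2793 to 24177 CPM in exposed libraries (median 10564), and its interval from 0.810 to 1.67 leaves room for a change in either direction (log2 0.22 ± 0.26).

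The chains of thyrotropin had lower medians in exposed libraries and did not pass the test. Tshb ran from 3705 to 10781 CPM in unexposed (median 8043) and from 3182 to 13762 CPM in exposed libraries (median 6444), a log2 fold change of -0.12 ± 0.16 with an interval of the fold change from 0.736 to 1.15 (edgeR, adjusted p = 0.889). Cga, the alpha chain shared with the gonadotropins, ran from 13985 to 29071 CPM in unexposed (median 20347) and from 13592 to 27655 CPM in exposed libraries (median 16835). Of the 7 hormone genes it had the lowest p: the log2 fold change was -0.17 ± 0.09 (SE), with 18 of 24 exposed libraries below the unexposed mean (edgeR, unadjusted p = 0.0580, adjusted p = 0.715). Cga was at -0.19 ± 0.13 without and -0.15 ± 0.12 under vancomycin.

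The beta chains of the gonadotropins gave values of opposite sign. Lhb ran from 3532 to 8601 CPM in unexposed and from 4081 to 8829 CPM in exposed libraries (log2 -0.07 ± 0.10, interval of the fold change 0.831 to 1.096). Fshb ran from 249 to 1556 CPM in unexposed and from 334 to 1564 CPM in exposed libraries (log2 0.24 ± 0.19, interval 0.904 to 1.54). The highest Fshb values in the vehicle and combination groups belonged to P7 and P48, the deepest library of each. Per doubling of the total count, Fshb was 0.78, Pomc 1.08 and Prl 0.31 higher and Gh1 0.52 lower in log2 units, all past the edgeR test, whereas Tshb, Cga and Lhb did not pass.

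**Figure D4:**
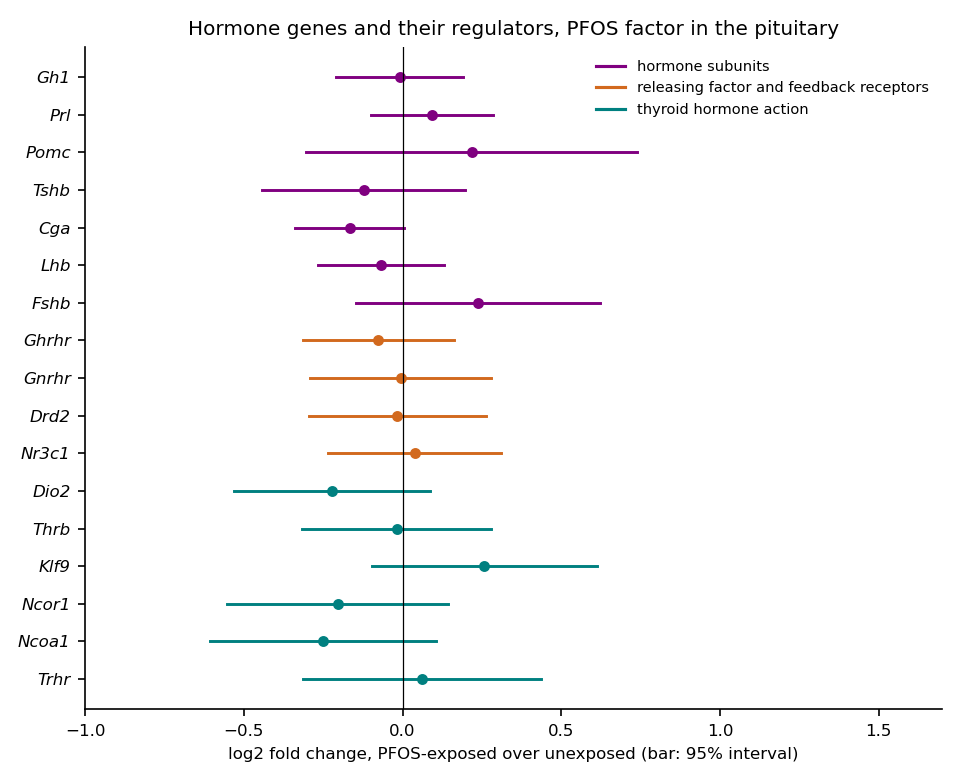
Points are log2 fold changes of the PFOS factor in the pituitary for 7 hormone genes (purple), 4 receptors of releasing factors and feedback hormones (orange) and 6 further genes of thyroid hormone action (teal), with bars for the 95% interval. Every interval reaches 0, and those of Gh1 and Prl are narrower than that of Pomc.

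Genes on the list of thyroid hormone action and metabolism did not pass either. Of the 19 listed, 8 could be tested, with Tshb and Cga from above among them. Of these 8, 0 passed, and their median log2 fold change was -0.14 against 0.00 over all genes. Dio2, the deiodinase that makes active hormone inside the pituitary, ran from 18.3 to 72.4 CPM in unexposed (median 38.4) and from 12.9 to 69.6 CPM in exposed libraries (median 33.4; log2 -0.22 ± 0.15). Thrb, the thyroid hormone receptor of the feedback loop, was at -0.02 ± 0.15, and Klf9, a target gene of thyroid hormone, at 0.26 ± 0.18. Ncor1, a corepressor of that receptor, and Ncoa1, a coactivator, were at -0.20 ± 0.17 and -0.25 ± 0.18, and Trhr, the receptor for thyrotropin-releasing hormone, at 0.06 ± 0.19. The other 11 were too low to test, such as Thra with 402 counts, Thrsp with 315, Dio1 with 163 and Dio3 with 1 over all 43 libraries, so no statement on them is possible at this depth. Among the receptors for other releasing and feedback hormones, Ghrhr (-0.08 ± 0.12), Gnrhr (-0.01 ± 0.14), Drd2 (-0.02 ± 0.14) and Nr3c1 (0.04 ± 0.14) could be tested and did not pass. Pou1f1, the transcription factor of growth hormone, prolactin and thyrotropin cells, was measured more closely at -0.02 ± 0.06, from 376 ± 48.1 CPM (SD, n = 19) to 370 ± 48.6 CPM (SD, n = 24).

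Among 41 gene lists, only the mitochondrial ribosomal proteins held a gene that passed, Mrpl51, 1 of 61 tested, and the median of that list was 0.01. Of its other members, Mrps22 (-0.37 ± 0.12) and Mrpl42 (-0.25 ± 0.09) were lower and Mrpl2 (0.36 ± 0.15) higher at an unadjusted p under 0.05. The 80 cytosolic ribosomal protein genes tested, many of which have near-identical pseudogenes that could share reads, all had a positive fold change. Positive values were found for 2086 of all 4081 genes tested. The ribosomal protein genes had a median of 0.19 and a range from 0.01 (Rpl39l) to 0.48 (Rpl14), and 0 passed. Their level went with depth: 76 of the 80 were higher in deeper libraries (edgeR), against 22.6% of all genes tested, with a median of 0.55 per doubling of the total. With the total in the model their median was 0.10, and in the subsets it was 0.10 without and 0.24 under vancomycin. Their summed share was 10.6% ± 2.35 (SD, n = 19) in unexposed and 11.7% ± 3.00 (SD, n = 24) in exposed libraries.

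Metabolic genes, among them those that PFOS is known to induce in liver, could be read only in part. Of 30 genes of fatty acid oxidation under PPAR alpha, the lipid-sensing receptor, 16 were tested and 0 passed, with a median of 0.01. Of these 16, 8 were positive and 8 negative, from -0.21 (Plin2) to 0.23 (Eci2). Acadm, an acyl-CoA dehydrogenase, was at 0.21 ± 0.09 and Ech1, an enoyl-CoA isomerase, at 0.12 ± 0.06. Of 20 drug metabolism genes under the receptors CAR and PXR, 3 were tested, Por (0.22 ± 0.15), Gstm1 (-0.03 ± 0.09) and Ephx1 (-0.04 ± 0.09). Cholesterol synthesis and uptake had 16 genes tested, 14 of them negative, against 1995 of all 4081 genes. Of the 16, 0 passed and the median was -0.09, with -0.05 without and -0.12 under vancomycin. Srebf2, the transcription factor that drives this pathway, was at -0.47 ± 0.13 (edgeR, adjusted p = 0.158).

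No tested gene of the apparatus of hormone secretion passed. Of 18 granins and granule proteins tested, 11 were negative and 7 positive, with a median of -0.05. Their values ran from -0.18 (Cpe) to 0.37 (Pcsk1n). Cpe, the carboxypeptidase that trims prohormones, was at -0.18 ± 0.06 (551 ± 74.4 to 493 ± 66.2 CPM, SD, n = 19 and 24; edgeR, adjusted p = 0.278), and Chgb, a granin, at -0.15 ± 0.06. Over all 4081 genes tested, 1995 were negative. Of 15 genes of calcium and cAMP signalling in hormone release, 12 were negative with a median of -0.11. Their median was -0.14 without and -0.08 under vancomycin. The lowest were Adcy6, an adenylyl cyclase, at -0.45 ± 0.17 and Prkaca, a catalytic subunit of protein kinase A, at -0.35 ± 0.13. All 9 cytosolic heat shock genes tested were negative (median -0.12), led by Hsph1 at -0.52 ± 0.17 (edgeR, adjusted p = 0.331). Their median was -0.04 without and -0.20 under vancomycin. The nuclear-encoded subunits of oxidative phosphorylation (58 tested, median 0.03) and the proteasome (31 tested, median 0.02) each held 0 genes that passed.

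Just outside the threshold the balance stayed on the lower side: of the 20 genes next in order of p, 19 were lower and 1 higher. The first were Hs6st1, a heparan sulfate sulfotransferase (-0.76 ± 0.18, adjusted p = 0.0619), Coa5, an assembly factor of cytochrome c oxidase (-0.70 ± 0.17, adjusted p = 0.0806), and Wtap, a subunit of the m6A RNA methyltransferase (-0.44 ± 0.11, adjusted p = 0.0991; edgeR). The higher one was Ppp1r7, a regulatory subunit of protein phosphatase 1 (0.52 ± 0.15). Of these 20, 13 were higher in P1 to P5 than in P6 to P12 and 14 were lower in deeper libraries, each past the edgeR test, against 1.68% and 24.2% of all genes tested.

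In the hypothalamus of the same study, 7 of the 8 genes rose. A model of 43 pituitary and 43 hypothalamus libraries tested 6275 genes for a PFOS effect that differed between the tissues, and 590 passed (9.40%), 340 with a higher effect in pituitary (5.42%) and 250 with a lower one (3.98%). All 8 genes were among the 250, with differences from -0.72 ± 0.17 (Elavl1) to -1.47 ± 0.24 (Zfp280b; edgeR, adjusted p from 1.1e-07 to 0.00346). The pituitary libraries of this model are those that chose the 8, so the differences are a description. Within the hypothalamus 7 of the 8 genes rose with PFOS, by 0.35 ± 0.08 (Ptp4a2) to 0.64 ± 0.09 (Zfp644), where 5.74% of all genes rose, and Elavl1 was at 0.17 ± 0.10 (edgeR, adjusted p = 0.268). Every exposed hypothalamus barcode used began with T and no unexposed one did. Exposure also went with the plate row there, so barcode and row cannot be told apart from PFOS. Exposed hypothalamus libraries held fewer counts than unexposed ones, with 648430 ± 221995 (SD, n = 19) against 822891 ± 236586 (SD, n = 24; permutation test, p = 0.0170). With the total in the model, the number of genes that differed was 210 in place of 590, and all 8 remained past the threshold, with differences from -0.61 (Elavl1) to -1.18 (Zfp280b). The rise within the hypothalamus alone was not tested with the total in the model. None of the 8 was shown to differ between pituitary and liver (edgeR, 32 liver libraries, adjusted p at least 0.708), where Elavl1 (-0.50 ± 0.16), Ptp4a2 (-0.49 ± 0.16) and Poldip3 (-0.54 ± 0.25) were negative without passing. Liver libraries carry the same barcodes in the same well rows and columns as the pituitary libraries of their number, on another plate. Barcode and row therefore go with exposure in the same way in both tissues, and cannot be told apart from PFOS in either.

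**Figure D5:**
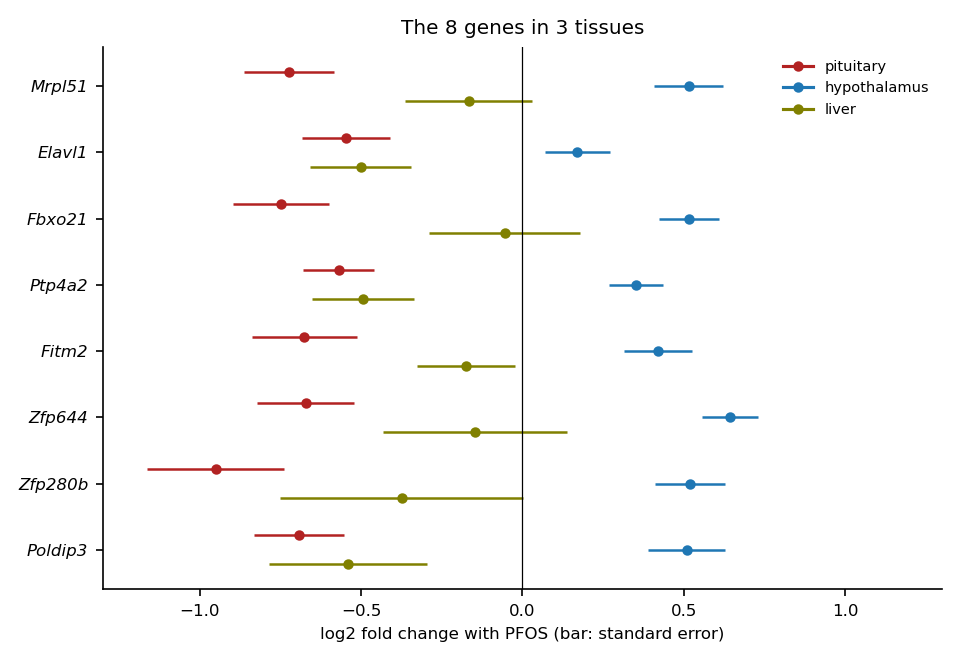
Points are log2 fold changes with PFOS of the 8 genes in pituitary (red) and hypothalamus (blue), from 1 model of both, and in liver (olive), from a model of liver and pituitary, with bars for the standard error. The pituitary values all lie below 0, the hypothalamus values above 0, and each liver value between 0 and the pituitary value.

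Against liver the pituitary differed at genes of the hepatic PFOS response. Of 5131 genes tested, 3 passed (0.0585%), each with a lower effect in pituitary. Of these, Ech1 (difference -0.77 ± 0.16) and Ephx1, an epoxide hydrolase (-0.74 ± 0.15), were also tested in pituitary alone, and each had an adjusted p of 0.0104 (edgeR) for the difference. In liver they rose by 0.88 ± 0.12 and 0.71 ± 0.11, and in the pituitary of the same model they were at 0.11 ± 0.10 and -0.03 ± 0.11. The third was Cyp2b2, a cytochrome P450 induced through CAR, which rose in liver by 2.72 ± 0.17. It held 39 counts over all 43 pituitary libraries, too few to be tested in pituitary alone, so its difference restates the rise in liver and says nothing of the pituitary.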

How the data were processed

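BRB-seq counts of 48 pituitary libraries were used, with hypothalamus and liver for comparison. The deposited values are whole-number counts per gene and library, for 17483 gene names. BWA 0.7.4.4 and rn6 are listed without a role, per the submitters' processing notes; the other steps are not given in the sources used here. Names were matched to RefSeq names of GRCr8 (15578 by symbol, 1556 by synonym, 349 unmatched).

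Counts were fitted in R 4.3.3 with edgeR 4.0.16: filterByExpr at a minimum count of 10, TMM factors, and the robust quasi-likelihood F test on a vancomycin and a PFOS term, Benjamini-Hochberg adjusted, with a threshold of 0.05. "Rose", "fell" and "passed" refer to it. The standard error is the size of the log2 fold change divided by the square root of F. CPM use TMM factors over all 48 libraries. Libraries under 100000 counts, or with another barcode GC content than is usual in their tissue, were left out. Single values used two-sided permutation tests with 100000 resamples. The fit was tested on simulated data. Alternatives were DESeq2 1.42.0 and its size factors, limma 3.58.1 voom, other filters and library sets, thinning, covariates and each library left out. Added after seeing the data were the fits without P48, at 300000 to 900000 counts, for the coefficient of the total, and of P1 to P5 against P6 to P12.

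The comparison, its members and the 41 gene lists were chosen with earlier results of these data known. The named genes were by rule the largest changes that passed, the 8 lowest p, every tested member of the hormone and thyroid lists, and up to 4 members that passed in each other list. Genes named beyond it were chosen after their values were seen.

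Across tissues, 9 of 38 same-numbered pairs of pituitary and hypothalamus, and 15 of 32 of pituitary and liver, had deviations that correlated above 0.1. The mean r was 0.034 for the same number against -0.00047 for different numbers with hypothalamus, and 0.13 against -0.0041 with liver. Libraries of the same number share a well column, and those of pituitary and liver also share the well row and barcode. The labels name no animal, so a shared animal cannot be told apart from a shared position or barcode. The main models across tissues treat the libraries as independent. Intervals of fold changes cover the spread between these libraries.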

Additional observations from a re-analysis of the deposited data

Results flagged for a closer look

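In the 7 vehicle libraries P6 to P12, 5 genes had 1 library far from the other ones, among 22 groups of values examined, and chance flags about 1 in 20 groups. Elavl1 reached 99.0 CPM in P10 against 64.6 in the next library, and Thrb 51.3 CPM in P10 against 31.7. P10 had the fewest counts of the vehicle libraries used (303936). Pomc reached 34930 CPM in P7 against 16419, and Fshb 1556 CPM in P7 against 526. P7 had the most counts (948968). Klf9 reached 30.1 CPM in P9 against 18.3. Without P10 the PFOS factor passed for 2 genes, Elavl1 and Mrpl51, and without P7 for 21 genes, 19 lower and 2 higher. Over the 43 libraries, for each doubling of the total, Pomc was higher by 1.08 and Fshb by 0.78 in log2 units and Thrb was at -0.40 (edgeR, adjusted p = 7.39e-07, 1.82e-09 and 0.000901). Elavl1 (-0.04, adjusted p = 0.704) and Klf9 (0.03, adjusted p = 0.857) did not pass for the total.

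The PFOS effect differed between pituitary and hypothalamus, by the interaction term of edgeR, for each of the 8 genes that fell: Zfp280b by -1.47, Zfp644 by -1.31, Fbxo21 by -1.26, Mrpl51 by -1.24, Poldip3 by -1.20, Fitm2 by -1.096, Ptp4a2 by -0.92 and Elavl1 by -0.72 in log2 units. The usual barcodes of the tissues differ in base composition, with 5 G or C bases in pituitary and 1 in hypothalamus, so tissue and barcode composition cannot be told apart in these values. The pituitary libraries behind these values are also those that chose the 8 genes.

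The vehicle libraries P1 to P5, which the comparison does not use, held 66 genes at a higher level than the vehicle libraries P6 to P12 of the same treatment.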

How the results depend on the processing

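The 8 genes that passed for the PFOS factor were 11 with DESeq2, 8 with its size factors in edgeR, 9 with library totals alone and 8 with the hormone genes left out of the library size. They were 8 without a filter (14540 genes tested), 7 lower and 1 higher, with Ltb, which was higher, in place of Poldip3. They were 9 with voom, 12 with the well column and 8 with the total as a covariate. They were 63 with P1 to P5 included, all lower, 15 at 300000 to 900000 counts (14 lower, 1 higher), 4 as a mean of the subsets with and without vancomycin at equal weight, 0 in the libraries of 500000 counts or more (11 unexposed and 14 exposed; 215 genes at an unadjusted p under 0.05) and 0 after thinning to 231929 counts (113 of 2476). The 8 genes were negative under each of these settings in which they could be tested. Leaving out 1 library gave 2 to 21 genes, and Elavl1 and Mrpl51 passed in each of the 43 fits. The count moved by over 1.5 times without P6 (3 genes), P7 (21), P10 (2), P11 (5), P13 (4), P14 (5), P17 (5), P21 (5), P29 (5), P34 (4), P39 (4), P42 (5) or P48 (2). The causes were not tested, and some of these fits hold fewer libraries or counts.

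With P1 to P5 included, 49 genes passed without vancomycin in place of 0, all lower, and 0 under vancomycin in place of 2; with the total as a covariate 4 passed under vancomycin. Genes that went with the total were 794 of 2476 after thinning, in place of 1910. For pituitary against hypothalamus, the replicate block gave 170 genes in 38 same-numbered pairs (61 higher, 109 lower) and the total as a covariate 210 (99 higher, 111 lower), in place of 590 (340 higher, 250 lower); 849 passed with any barcode (506 higher, 343 lower). For pituitary against liver, the replicate block gave 11 genes (3 higher, 8 lower), any barcode 13 (3 higher, 10 lower) and the total as a covariate 8 (1 higher, 7 lower), in place of 3. Of the pituitary libraries, 10 of 38 correlated best with the hypothalamus library of their own number, and 11 of 32 with the liver library of theirs. On average, libraries of the same number correlated more than those of different numbers (mean r 0.034 against -0.00047 for hypothalamus, 0.13 against -0.0041 for liver). Whether they share an animal is not known, and the main fits treat them as independent. All 8 genes differed from the hypothalamus in every one of these fits, which draw on the pituitary libraries that chose them.

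Values that did not pass and lie near 0 changed sign. Gh1 (-0.01) was at 1.2e-05 without a filter, 0.017 with voom, 0.00073 at 300000 to 900000 counts and 0.034 with the total as a covariate, and from -0.045 to 0.041 with 1 library left out. Thrb (-0.02) was at 0.029 with voom, 0.032 at 300000 to 900000 counts, 0.049 with the total and 0.0011 as the mean of the subsets, and from -0.069 to 0.041 with 1 library left out. Trhr (0.06) was at -0.018 with the well column. The pituitary minus liver difference with the total as a covariate was 0.030 for Ptp4a2 and 0.016 for Poldip3. The gonadotrope share was 0.248 percentage points lower in exposed libraries, and 0.00023 higher as a share of the counts outside the hormone genes. The mean total was 92001 counts higher in exposed libraries and differed by -2094 without P48.

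Depth limits what can be read: 4081 of 17483 genes passed the filter, and 11 of 19 thyroid genes and 12 of 18 receptors did not.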
